A study of Mus musculus with 8 samples.

Results

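The nuclear-encoded subunits of the mitochondrial respiratory chain were examined in islets of mice with and without a β-cell knockdown of the IGF1 receptor. Members were the rows of the count table whose mouse symbol starts with Ndufa, Ndufb, Ndufc, Ndufs, Ndufv, Uqcr or Cox4 to Cox8, or is Sdha, Sdhb, Sdhc or Sdhd. This rule gave 68 of the 53012 genes in the table, 36 assigned to complex I, 4 to complex II, 8 to complex III and 20 to complex IV. Complexes were assigned from the symbol, except that Ndufa4 and Ndufa4l2 were set with complex IV. Left out were 8 pseudogene rows and the 8 assembly factors named Ndufaf. The rule used no measured value.

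RNA was measured by bulk RNA-seq, which pools the RNA of every cell type in the islets, in 4 βIgf1r mice (labelled CTRL) and 4 βIgf1rKD mice (labelled KD). All were 17 months old and homozygous for an Igf1r allele with exon 3 between loxP sites. The βIgf1rKD mice were Ins1-CreERT2+/- and received tamoxifen in corn oil, 5 injections of 0.075 mg/g every 24 h. The βIgf1r mice were Ins1-CreERT2-/- and received corn oil alone, so that knockdown, Cre and tamoxifen cannot be told apart. The Cre is driven by an insulin promoter, so that β-cells are the cells targeted and the other cells of the preparation are not. Islets were taken 7 days after the last injection, from 1 animal per library, and each group held both sexes. The authors deposited estimated counts per gene, and the values below are CPM, counts scaled to the library size with TMM factors, or log2 CPM.

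The respiratory chain passes electrons from NADH, through complex I, or from succinate, through complex II, to ubiquinone, then through complex III and cytochrome c to complex IV, where oxygen is reduced. Complexes I, III and IV pump protons as they do so, and ATP synthase uses the resulting gradient. In β-cells the ATP made in this way closes potassium channels when glucose rises and so triggers insulin secretion. All subunits of complex II and most of those of the other complexes are encoded in the nucleus, while 13 subunits of the chain and of ATP synthase are encoded in the mitochondrial genome.

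Total counts lay between 21633925 and 42391106 per mouse, and the members together took 0.265% to 0.408% of them. Islet hormone genes took 12.001% to 24.2% of the counts, and 12 acinar digestive enzyme genes 1.95% to 16.1%. Igf1r itself was at 53.6 ± 7.21 CPM in βIgf1r mice and 50.7 ± 4.996 CPM in βIgf1rKD mice (mean ± SD, n = 4 each), counted over the whole gene and not over exon 3 alone. The RNA Xist, made from the inactive X chromosome of females, was at 270 to 411 CPM in 1 βIgf1r mouse (M151) and 3 βIgf1rKD mice (M145, M146 and M150), and at 1.22 to 6.71 CPM in the others. M152 of the βIgf1r group and M146 of the βIgf1rKD group stood apart in their mitochondrially encoded RNA. The 13 mitochondrially encoded subunits took 0.483% of the counts in M152 and 0.791% in M146, but 1.998% to 3.84% in the other 6 mice. The numbers of members that were higher and that had an unadjusted p under 0.05 are given with and without these 2 libraries.

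In the comparison of βIgf1rKD with βIgf1r islets, no respiratory chain subunit passed the test and the groups overlapped for every subunit. Of the 68 members 64 had enough counts to be tested, and of these 30 were higher and 34 lower in βIgf1rKD islets by the sign of the fold change alone. By the same sign 52.3% of all genes tested were higher. The median log2 fold change of the 64 members was -0.0049, and that of all 15474 genes tested was 0.0080. By edgeR's quasi-likelihood test 0 members had an unadjusted p under 0.05, where 4.12% of all genes did, and the groups did not overlap for 0 members, where they did not for 2.22% of all genes. After adjustment over all genes 0 members and 0 genes had a p under 0.05, and the smallest adjusted p of a member was 0.987. DESeq2 and limma-voom also gave 0 members at an unadjusted or adjusted p under 0.05.

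The precision of these estimates can be read from their intervals. For 60 of the 64 members, or 93.8%, the 95% interval of the fold change lay within 1.5-fold in either direction, while 64.8% of all genes tested met this bound. The 4 exceptions were Cox4i2, Cox7a1, Ndufa4l2 and Cox6a2, all of complex IV. The median standard error of the log2 fold change was 0.10 for members and 0.14 for all genes, and the median within-group SD of log2 CPM was 0.15 and 0.20. Members were also the more abundant genes, with a median log2 CPM of 5.41 against 3.70, and the share of this in their precision was not tested. The mouse labels do not say whether animals shared a litter or an isolation day, so that the p-values measure the spread between these 8 libraries.

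**Figure D1:**
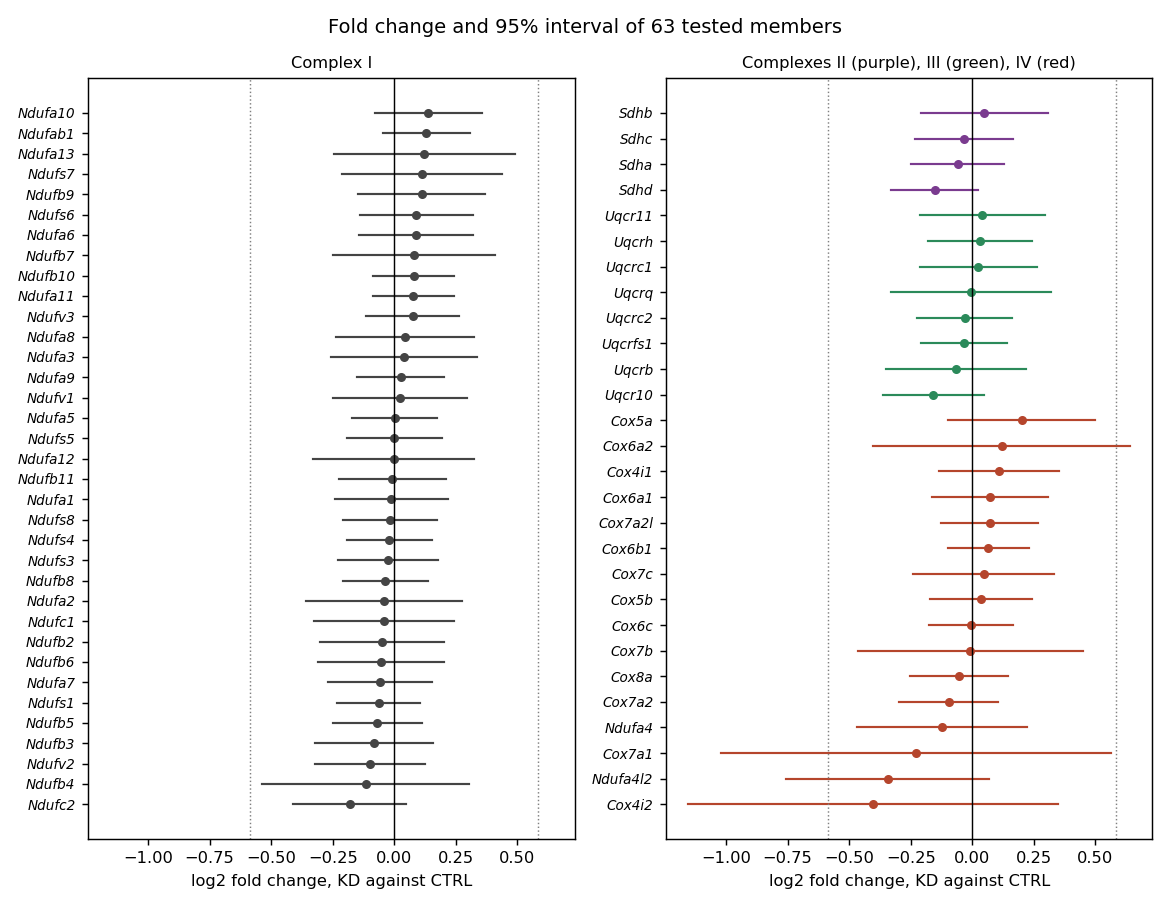
Log2 fold change of βIgf1rKD (KD) against βIgf1r (CTRL) islets on the horizontal axis for 63 of the 64 tested members, 1 row each, with the point estimate from edgeR and a 95% interval computed from its F statistic. Dotted lines mark a fold change of 1.5 in either direction, and every interval crosses 0.

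Complex I takes electrons from NADH through a flavin and a row of iron-sulfur clusters held by 7 nuclear-encoded core subunits. All 36 of its members were tested, 18 higher and 18 lower in βIgf1rKD islets, with a median log2 fold change of -0.0010. Of the 7 core subunits 3 were higher and 4 lower, between -0.10 and 0.11 on the log2 scale. The remaining 29 accessory subunits ranged from -0.18 to 0.14, with a median of 0.00012. Ndufb11 and Ndufa1, both X-linked subunits of the membrane arm, had the highest levels of the complex per kilobase. Ndufb11 was at 96.9 ± 10.1 CPM per kilobase in βIgf1r mice and 96.2 ± 8.70 in βIgf1rKD mice (mean ± SD, n = 4 each), and Ndufa1 at 91.8 ± 12.5 and 91.0 ± 4.57. These levels of Ndufb11 and Ndufa1 differed by less than the spread between mice. Per kilobase of coding transcript, in place of the union of all exons, neither was among the highest 2 of the complex.

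Ndufc2 (chr7:97400003-97407802, GRCm38, plus strand), a small membrane-arm subunit, had the lowest fold change of complex I. It was at 41.8, 34.6, 42.3 and 48.7 CPM in βIgf1r mice M148, M151, M152 and M153, and at 34.2, 37.3, 38.7 and 37.5 CPM in βIgf1rKD mice M145, M146, M149 and M150. M151 lay among the βIgf1rKD mice, and the 3 other βIgf1r mice lay above all 4 of them. The log2 fold change was -0.18 (standard error 0.10, 95% interval -0.41 to 0.05). Without M151 it was -0.26, past an unadjusted p of 0.05 by edgeR, with an adjusted p of 0.980.

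The 2 highest fold changes of complex I were those of Ndufa10 and Ndufab1. Ndufa10, an accessory subunit of the membrane arm, was at 40.4, 34.3, 38.1 and 38.7 CPM in βIgf1r and at 42.2, 37.1, 48.5 and 39.0 CPM in βIgf1rKD mice, in the order above. M145 and M149 were above all βIgf1r mice, and the 2 other βIgf1rKD mice were among them (log2 fold change 0.14, standard error 0.10, 95% interval -0.08 to 0.35). Ndufab1, the acyl carrier protein of mitochondria as well as a subunit of the complex, was at 37.4, 34.2, 35.4 and 39.6 CPM in βIgf1r and 41.8, 38.5, 43.1 and 37.1 CPM in βIgf1rKD mice. M145 and M149 again lay above all βIgf1r mice (log2 fold change 0.13, standard error 0.08, 95% interval -0.05 to 0.31). Reads of Ndufab1 share sequence with a processed pseudogene, Gm4459, whose row held 1.34% as many counts.

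Ndufb4, a small subunit of the membrane arm, had the lowest level of complex I per kilobase, 2.72 ± 0.550 CPM per kilobase in βIgf1r mice and 2.504 ± 0.430 in βIgf1rKD mice (mean ± SD, n = 4 each). Its coding sequence of 390 bases differs at 0 bases from the processed pseudogene Ndufb4c on chromosome 15, whose row held 325.7% as many counts as Ndufb4. The sequence is shown because reads from it cannot be told apart between the 2 rows. The first coding exon of Ndufb4, chr16:37654180-37654359 on the minus strand of GRCm38, is repeated in the pseudogene at chr15:73809717-73809896, also on the minus strand.
Ndufb4: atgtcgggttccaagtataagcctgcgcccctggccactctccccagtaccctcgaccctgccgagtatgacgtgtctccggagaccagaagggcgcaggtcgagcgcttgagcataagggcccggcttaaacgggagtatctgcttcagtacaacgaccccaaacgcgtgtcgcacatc
Ndufb4 alone had 90 to 214 counts per mouse and a log2 fold change of -0.12 (standard error 0.19, 95% interval -0.54 to 0.30). With the pseudogene rows added to it the sum was 470 to 965 counts per mouse, and the log2 fold change was -0.01 (standard error 0.14). Its share of the sum with Ndufb4c was 19.0% to 25.7%. Of all members 20, among them Ndufb4, share more than 10% of their 31-base words with other transcripts, but the only other pseudogene row with more than 10% of a member's counts was Gm12338, at 16.4% of Cox7c.

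**Figure D2:**
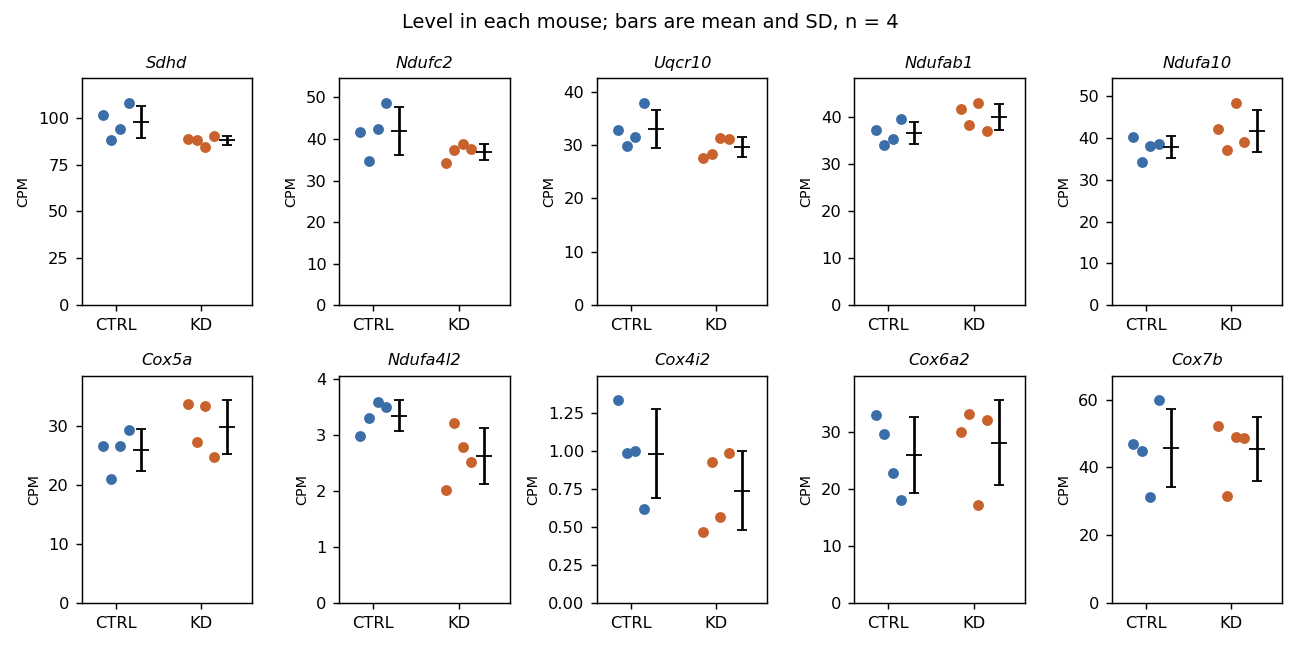
CPM of 10 members in each mouse, βIgf1r (CTRL, blue) and βIgf1rKD (KD, orange), with the mean and SD of each group (n = 4) drawn in black. In every panel points of both groups overlap, most nearly not in Ndufa4l2, where 3 βIgf1rKD mice lie below all βIgf1r mice.

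Complex II, succinate dehydrogenase, is also an enzyme of the citric acid cycle and has 4 subunits. Of these 1 was higher and 3 were lower in βIgf1rKD islets, with a median log2 fold change of -0.05. Sdhd (chr9:50596357-50603812, minus strand), which with Sdhc anchors the enzyme in the membrane, had the smallest p of all members. It was at 101.3, 88.0, 93.7 and 108.0 CPM in βIgf1r mice M148, M151, M152 and M153, and at 88.8, 88.0, 84.5 and 90.1 CPM in βIgf1rKD mice M145, M146, M149 and M150. The βIgf1rKD mice kept within a narrow range, and M151 lay inside it. The log2 fold change was -0.15 (standard error 0.08, 95% interval -0.33 to 0.03), and without M151 it was -0.20, past an unadjusted edgeR p of 0.05, with an adjusted p of 0.980. 

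Sdha, the flavoprotein that oxidises succinate, was at 230.2 ± 8.61 CPM in βIgf1r mice and 220.9 ± 13.01 CPM in βIgf1rKD mice (mean ± SD, n = 4 each). Sdhb, which holds the iron-sulfur clusters, was at 53.7 ± 6.99 and 55.5 ± 6.27 CPM (SD, n = 4 each), and Sdhc at 69.6 ± 6.26 and 68.0 ± 5.20 CPM. None of these 3 subunits moved beyond the variation among mice, with log2 fold changes of -0.06, 0.05 and -0.03. Per kilobase of exon the order of levels was Sdhd, Sdha, Sdhb and Sdhc, at 75.4, 54.7, 24.4 and 21.2 CPM per kilobase over all 8 mice. Sdhb was above Sdhc in each mouse, while their ranges over the mice overlapped. With coding transcript lengths Sdha came before Sdhd, at 124.5 and 75.4 CPM per kilobase, and Sdhc and Sdhb were at 48.2 and 47.8.

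Complex III passes electrons from ubiquinol to cytochrome c. Its 8 members were all tested, 3 higher and 5 lower, between -0.16 and 0.04 on the log2 scale. Uqcr10 (chr11:4701973-4704342, minus strand), a small subunit, was lowest. It was at 32.8, 29.8, 31.5 and 37.9 CPM in βIgf1r and 27.6, 28.3, 31.3 and 31.1 CPM in βIgf1rKD mice, so that M145 and M146 lay below all βIgf1r mice and the others overlapped (log2 fold change -0.16, standard error 0.09, 95% interval -0.36 to 0.05). Uqcrb, which binds ubiquinone, had the next lowest fold change, -0.07, with 52.6 ± 7.52 CPM in βIgf1r mice and 50.2 ± 6.99 CPM in βIgf1rKD mice (mean ± SD, n = 4 each). Uqcr11 and Uqcrh were highest, at 0.04 and 0.03. Uqcrfs1, the Rieske iron-sulfur protein that carries the electron to cytochrome c1, had a log2 fold change of -0.03, and the core proteins Uqcrc1 and Uqcrc2 had 0.02 and -0.03. Uqcr11 and Uqcrb had the highest levels per kilobase of exon, 68.1 and 58.7 CPM per kilobase over all mice, followed by Uqcrh at 57.2. Uqcr11 was above Uqcrh in each mouse, while the place of Uqcrb relative to both varied between mice. Uqcrc1 had the lowest level, 9.97 CPM per kilobase. With coding transcript lengths the order was another, with Uqcrh first at 149.1 CPM per kilobase, Uqcr11 and Uqcrb at 98.1 and 96.1, Uqcrc1 at 53.4 and Uqcrfs1 lowest at 41.96.

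Complex IV, cytochrome c oxidase, has several subunits that exist as a common and a tissue-restricted isoform. Of its 20 members 16 were tested, 8 higher and 8 lower in βIgf1rKD islets, with a median log2 fold change of 0.02. Cox8a and Cox7a2l had the highest levels per kilobase of exon, and with coding transcript lengths Cox8a and Cox4i1 did. Cox8a, the common form of the smallest subunit, was at 179.9 ± 17.5 CPM per kilobase in βIgf1r mice and 173.2 ± 9.59 in βIgf1rKD mice (mean ± SD, n = 4 each). Cox7a2l, which joins complexes III and IV into larger assemblies, was at 125.0 ± 5.20 and 131.2 ± 10.4 (SD, n = 4 each). The common isoforms Cox4i1, Cox6a1, Cox6b1, Cox7a2 and Cox7b had log2 fold changes of 0.11, 0.07, 0.07, -0.10 and -0.01, none beyond the spread between mice.

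Cox5a (chr9:57521274-57532426, plus strand), a subunit on the matrix side, had the highest fold change of all members. It was at 26.7, 21.1, 26.7 and 29.5 CPM in βIgf1r mice M148, M151, M152 and M153, and at 33.9, 27.3, 33.6 and 24.8 CPM in βIgf1rKD mice M145, M146, M149 and M150. M145 and M149 were above all βIgf1r mice and M150 was below 3 of them (log2 fold change 0.20, standard error 0.13, 95% interval -0.10 to 0.50). With Xist as a covariate the log2 fold change was 0.32, past an unadjusted edgeR p of 0.05, with an adjusted p of 0.657.

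Ndufa4l2 (chr10:127514967-127517154, plus strand), a relative of Ndufa4 that is induced by hypoxia, was at 2.98, 3.31, 3.595 and 3.51 CPM in βIgf1r and 2.01, 3.21, 2.79 and 2.52 CPM in βIgf1rKD mice. The βIgf1rKD mice M145, M149 and M150 lay below all βIgf1r mice, and M146 lay between M148 and M151. Its log2 fold change was -0.34 (standard error 0.18, 95% interval -0.76 to 0.07). Without M146 it was -0.45, past an unadjusted edgeR p of 0.05, with an adjusted p of 0.807. Cox4i2 (chr2:152754173-152765037, plus strand), the isoform of Cox4i1 known from lung and from low oxygen, was at 1.33, 0.982, 0.997 and 0.616 CPM in βIgf1r and 0.468, 0.928, 0.566 and 0.987 CPM in βIgf1rKD mice. M145 and M149 were below all βIgf1r mice, the other βIgf1rKD mice were not (log2 fold change -0.40, standard error 0.33, 95% interval -1.15 to 0.35). With 10 to 50 counts per mouse a 2-fold decrease of Cox4i2 was within the interval.

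Both genes are known as markers of pericytes, which wrap the capillaries, so the levels of vessel cell markers are given beside them. Of 10 endothelial markers 10 were lower in βIgf1rKD islets, where 7388 of all 15474 genes were, with a median log2 fold change of -0.29. As markers of 1 cell type in the same 8 libraries they are not independent. Of the 10, 6 had an unadjusted edgeR p under 0.05, where 4.12% of all genes did, with an adjusted p of 0.987 for each. These 6 were Kdr and Flt1, receptors for VEGF, with log2 fold changes of -0.38 and -0.34, and Ptprb, Esam, Cdh5 and Pecam1, proteins of the endothelial surface and junctions, with -0.36, -0.30, -0.28 and -0.24. Together the 10 made up 0.0478% to 0.0707% of βIgf1r and 0.0328% to 0.0496% of βIgf1rKD counts. Of the 7 smooth or striated muscle and pericyte markers 5 were tested, 3 higher and 2 lower, with a median log2 fold change of 0.06. Rgs5 was at 108.1 ± 16.8 CPM in βIgf1r mice and 87.1 ± 7.29 CPM in βIgf1rKD mice (mean ± SD, n = 4 each) (log2 fold change -0.31, edgeR adjusted p = 0.987), and Pdgfrb at 11.96 ± 0.866 and 10.4 ± 2.53 CPM (log2 fold change -0.21), while the smooth muscle genes Acta2 and Myh11 had 0.20 and 0.06, and Acta1 0.09. The 7 made up 0.0103% to 0.0181% of βIgf1r and 0.0092% to 0.0131% of βIgf1rKD counts, with 0 of them at 0 in all mice. Among markers of other cells, 12 of 12 acinar markers were higher in βIgf1rKD islets (median log2 fold change 0.84, median standard error 0.74), 0 with an unadjusted edgeR p under 0.05. They took 1.95% to 14.3% of βIgf1r and 4.15% to 16.1% of βIgf1rKD counts, so that the groups overlapped widely. Of 6 tested leukocyte markers 4 were higher and 2 lower, and 6 of 6 islet hormone genes were lower (median -0.24). Of the hormone genes Ins1, which encodes an insulin, was at 41092 ± 7908 CPM in βIgf1r mice and 21699 ± 4567 CPM in βIgf1rKD mice (mean ± SD, n = 4 each). Its groups did not overlap, as those of 2.22% of all genes did not (log2 fold change -0.92, edgeR adjusted p = 0.987). The βIgf1rKD mice carried Ins1-CreERT2 and the βIgf1r mice did not, and the part of this in the values of Ins1 was not tested. Ins2, the other insulin gene, was at 115610 ± 12984 and 109713 ± 20469 CPM (SD, n = 4 each), with overlap (log2 fold change -0.08). The part of these cells in the values of Ndufa4l2 and Cox4i2 was not tested, and in bulk RNA fewer cells of a type and less RNA per cell cannot be told apart.

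The isoforms known from heart and skeletal muscle are Cox6a2, Cox7a1 and Cox8b. Cox6a2 (chr7:128205435-128206387, minus strand) was present at 17.2 to 33.2 CPM, a level per kilobase that was 22.2% to 49.3% of that of its common partner Cox6a1. Of the striated muscle markers in the same libraries Ckm was at 0 to 0.140 CPM, Tnnt3 at 0 to 0.0364 CPM and Acta1, skeletal muscle actin, at 0.728 to 1.52 CPM. Cox6a2 was at 32.9, 29.5, 22.7 and 18.1 CPM in βIgf1r and 29.99, 33.2, 17.2 and 31.96 CPM in βIgf1rKD mice. Mice M152, M153 and M149 were low and the 5 others high, in both groups, and the mean difference was 0.12 on the log2 scale (standard error 0.23, 95% interval -0.40 to 0.64). The 4 mice with high Xist were all among the 5 with high Cox6a2. Cox7a1 had 7 to 14 counts per mouse, 0.560% to 1.63% of Cox7a2 per kilobase, and a log2 fold change of -0.23 (standard error 0.35). Cox8b had 0 to 6 counts per mouse. The isoforms known from testis were near or at 0, with 2 to 6 counts per mouse for Cox6b2 and 0 to 1 for Cox7b2. Cox8c had 0 counts in every mouse, which allows up to 3 counts, or 0.0708 to 0.139 CPM of the total counts, depending on the library. Counting intervals cover counting error only.

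For 4 isoform pairs both genes could be tested, and the log2 ratio of their counts was set between the groups by exact permutation (two-sided, all 70 ways to split the mice, smallest possible p 0.0286). The ratio of Cox4i2 to Cox4i1 was -6.34, -6.71, -7.06 and -7.61 in βIgf1r and -7.89, -7.19, -7.88 and -6.88 in βIgf1rKD mice, with 2 of 4 βIgf1rKD mice below all βIgf1r mice. Its mean difference was -0.53 (exact permutation p = 0.171, adjusted over the 4 pairs p = 0.686). For Ndufa4l2 to Ndufa4 the difference was -0.25, for Cox7a1 to Cox7a2 -0.16 and for Cox6a2 to Cox6a1 0.04, with exact permutation p-values that were larger still, up to 0.971. No change in the relative use of an isoform was detectable among these mice.

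The members differed more between mice of one group than between the groups. Each member's log2 CPM was set against its own mean over the 8 mice, and the median of these deviations was taken in each mouse. In the βIgf1r mice M148, M151, M152 and M153 the median deviation was -0.02, -0.13, 0.05 and 0.13, and in the βIgf1rKD mice M145, M146, M149 and M150 it was -0.05, 0.01, 0.07 and -0.04. The mean over mice was 0.0070 ± 0.111 in βIgf1r mice and -0.0017 ± 0.0552 in βIgf1rKD mice (mean ± SD, n = 4 each). The median deviation of all genes tested was between -0.0061 and 0.0077 in each mouse.

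The lowest and the highest mouse were both βIgf1r mice. M151 had the lowest value of 33 of the 64 members, where it had the lowest value of 13.4% of all genes, and 57 members were below their own mean there. M153 had the highest value of 28 members, where it had the highest of 13.9% of all genes, and 54 members were above their own mean. For 61 of 64 members M153 lay above M151, by a median of 0.26 on the log2 scale, while this held for 49.8% of all genes. M151 was lowest in each of the 4 complexes, with median deviations of -0.15, -0.13, -0.16 and -0.06 for complexes I to IV. M153 was highest in complexes I, III and IV, at 0.10, 0.17 and 0.12, and in complex II it was at 0.06, below M148 at 0.09. ATP synthase subunits, which are no members, gave the same 2 mice as extremes, M151 at -0.13 and M153 at 0.18. The SD of log2 CPM was larger among βIgf1r than among βIgf1rKD mice for 45 of the 64 members and for 48.2% of all genes. The median range over the 8 mice was nevertheless smaller for members than for all genes, at 0.43 against 0.60 on the log2 scale. 

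The number of members on either side changed when 1 of these mice was left out. Without M151 19 of 64 members were higher in βIgf1rKD islets, with a median log2 fold change of -0.05, and without M153 43 were higher, with a median of 0.02. Over all genes 54.2% were higher without M151, with a median of 0.016, and 51.4% without M153, with a median of 0.0050. M151 was also the only βIgf1r mouse with high Xist. In the 4 mice with high Xist 7, 23, 34 and 19 members were above their own mean, and in the 4 others 29, 42, 54 and 46. With Xist as a covariate 44 of 64 members were higher, with a median log2 fold change of 0.04 where all genes had 0.00022. Then 3 members, Cox5a, Ndufb9 and Ndufa10, had an unadjusted edgeR p under 0.05, where 7.39% of all genes did, and 0 had an adjusted p under 0.05. With an acinar marker score as the covariate 19 were higher, with a median of -0.04, where 53.8% of all genes were higher, with a median of 0.013. With both covariates together 40 were higher, where 52.8% of all genes were, with a median of 0.05 for the members and 0 members at an unadjusted p under 0.05. The part of sex and of acinar RNA in these values cannot be told apart from that of single mice in 8 libraries.

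**Figure D3:**
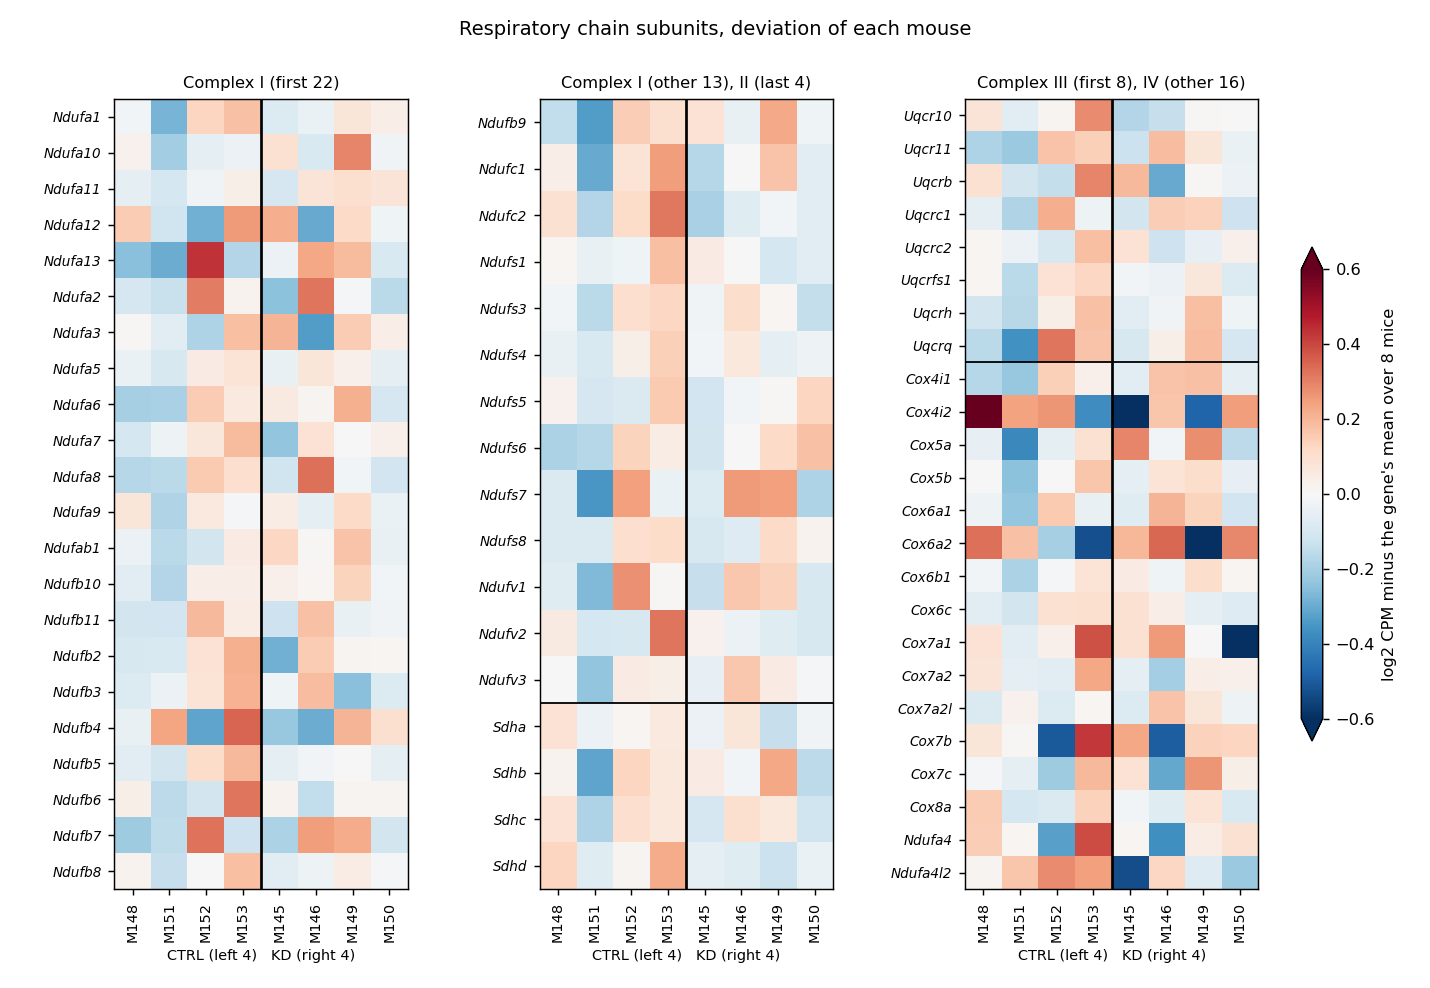
Deviation of each mouse from the gene's own mean over 8 mice, in log2 CPM, for 63 of the 64 tested members, with βIgf1r (CTRL) mice left and βIgf1rKD (KD) mice right of the thick line and thin lines between complexes. The column of M151 is blue for 56 of these members and that of M153 red for 54, while no block of rows changes colour at the thick line.

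**Figure D4:**
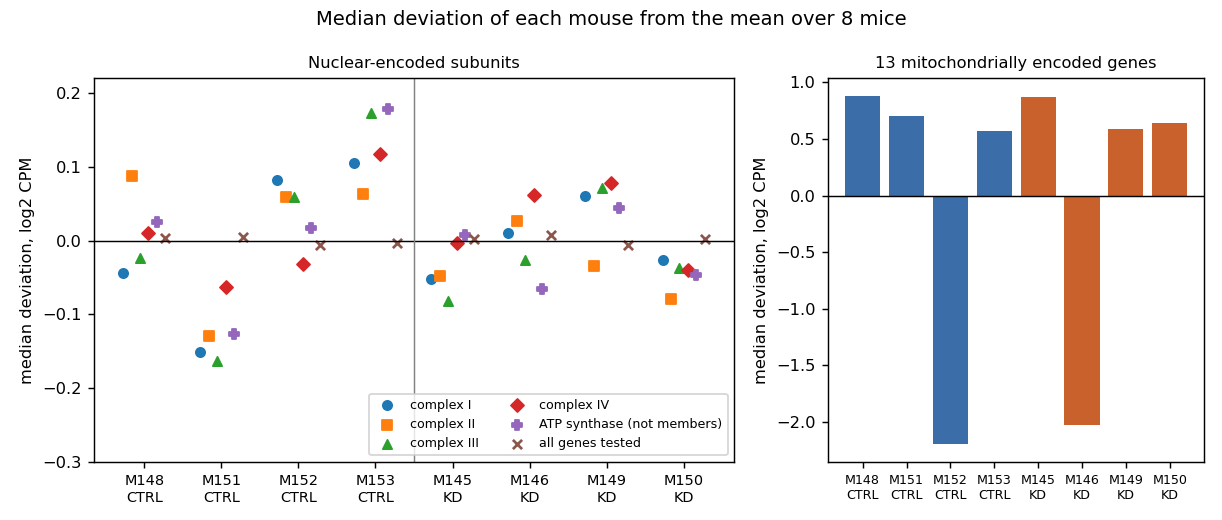
Left, the median deviation of each complex, of ATP synthase subunits and of all genes tested in each mouse, in log2 CPM; right, the same median for the 13 mitochondrially encoded genes on a wider axis. M151 is lowest for all 4 complexes, and M152 and M146 lie far below the other mice only in the right panel.

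The nuclear-encoded subunits did not follow the mitochondrially encoded ones across mice. In M152 and M146 the median deviation of the 13 mitochondrially encoded genes was -2.20 and -2.03 on the log2 scale, and in the 6 other mice it was 0.57 to 0.88. The members as a whole were at 0.05 and 0.01 in the same 2 mice. For each count in a member there were 1.55 and 1.96 counts in mitochondrially encoded genes in M152 and M146, and 6.97 to 9.50 in the others. Of the 13 genes 8 were higher and 5 lower in βIgf1rKD islets, 0 with an unadjusted edgeR p under 0.05, and the median standard error of 0.68 left large changes within the intervals.

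Single members did differ in these 2 libraries, in both directions. Both M152 and M146 lay above the 6 other mice for 13 members, or 20.3%, and below them for 9, or 14.1%, while 12.6% and 11.6% of all genes did so. One of the 2 libraries belongs to each group. The lowest were Cox7b, at -0.67 on the log2 scale against the 6 other mice, Ndufa4 at -0.46 and Ndufb4 at -0.41. The highest were Ndufa13 at 0.44, Ndufa2 at 0.42 and Ndufb7 at 0.38. Cox7b (chrX:106015700-106022450, plus strand), a subunit of complex IV, was at 31.4 CPM in M152 and 31.6 CPM in M146, and at 44.8 to 59.8 CPM in the other mice. Ndufa13, a complex I subunit also known as GRIM-19, was at 77.8 and 67.6 CPM in M152 and M146 and at 46.8 to 65.7 CPM in the others. With both libraries left out, 1 of 64 members had an unadjusted edgeR p under 0.05, where 7.79% of all genes did, and 31 were higher. The 1 member was Ndufa13, whose log2 fold change was 0.27 without both (adjusted p = 0.551), 0.32 without M152 alone (adjusted p = 0.669) and 0.12 with all mice. These members were named after their values were seen.

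In both libraries members with a higher GC content of the transcript were higher than those with a lower one. The median GC content of the members was 52.3%, from 42.0% in Cox7b to 60.4% in Ndufa13. The 32 members at or above the median had a median deviation of 0.11 in both M152 and M146, and the 32 below it 0.02 and -0.02. M149 had the same direction, at 0.09 and 0.04. In M153 this was turned around, with 0.05 for the GC-richer and 0.18 for the GC-poorer members, as it was in M145, at -0.08 and -0.02. Across members the correlation of the deviation with GC content was 0.56 in M152, 0.51 in M146, 0.11 in M149, -0.39 in M145 and -0.46 in M153 (n = 64 genes, which share their libraries and are not independent), and over 13872 genes with a known GC content it was 0.36, 0.27, 0.09, -0.15 and -0.30 in the same order. Between the groups, 21 of the 32 GC-richer and 9 of the 32 GC-poorer members were higher in βIgf1rKD islets, with median log2 fold changes of 0.04 and -0.03. The part of GC content in the small fold changes above was not tested.

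**Figure D5:**
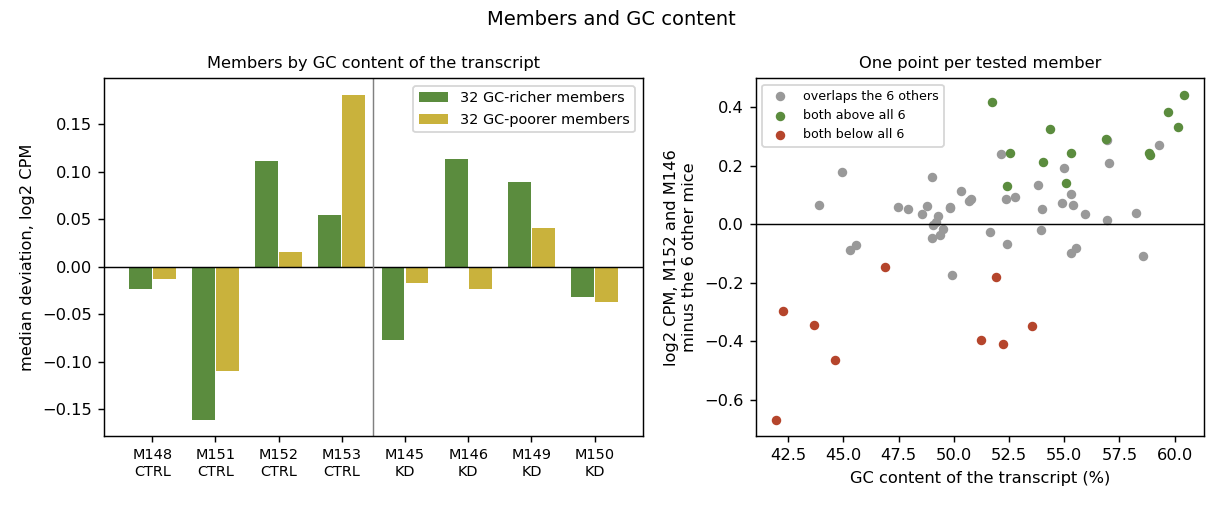
Left, the median deviation in log2 CPM of the 32 GC-richer and the 32 GC-poorer members in each mouse. Right, for each tested member, the mean log2 CPM of M152 and M146 minus that of the 6 other mice, plotted against the GC content of its transcript, with green points for members above and red points for members below all 6 other mice in both libraries.

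Many nuclear genes of the respiratory chain are controlled by NRF1 and by GABP, a factor of the ETS family, and their known sites were looked for in the promoters. RefSeq promoters on GRCm38.p6 were at hand for 54 of the 68 members, as 250 bases before and 50 after the start. The letters GCATGCGC, taken for NRF1, were found on either strand in 7 member promoters, or 12.96%, in 2.80% of all 27025 promoters and in 5.12% of the 11437 promoters of genes tested here. The letters CCGGAAG, taken for ETS factors, were found in 11, or 20.4%, in 9.12% of all promoters and in 16.9% of those of tested genes. Shown are the 250 bases before the start, without the 50 after it, of Cox6a1, which has both motifs there, and of 2 subunits of complex II, with the motif letters in capitals. Cox6a1 is at chr5:115348959-115349208 on the minus strand, Sdhb at chr4:140961021-140961270 on the plus strand and Sdhd at chr9:50603850-50604099 on the minus strand.
Cox6a1: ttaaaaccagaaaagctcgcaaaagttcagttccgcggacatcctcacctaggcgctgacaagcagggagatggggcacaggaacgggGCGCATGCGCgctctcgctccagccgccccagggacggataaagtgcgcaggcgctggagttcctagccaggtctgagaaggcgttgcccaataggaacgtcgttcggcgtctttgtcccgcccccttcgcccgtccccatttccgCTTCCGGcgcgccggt
Sdhb: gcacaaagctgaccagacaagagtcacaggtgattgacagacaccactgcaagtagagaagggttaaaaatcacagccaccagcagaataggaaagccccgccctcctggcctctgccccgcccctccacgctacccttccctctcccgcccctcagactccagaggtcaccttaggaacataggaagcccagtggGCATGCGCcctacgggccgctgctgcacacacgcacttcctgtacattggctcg
Sdhd: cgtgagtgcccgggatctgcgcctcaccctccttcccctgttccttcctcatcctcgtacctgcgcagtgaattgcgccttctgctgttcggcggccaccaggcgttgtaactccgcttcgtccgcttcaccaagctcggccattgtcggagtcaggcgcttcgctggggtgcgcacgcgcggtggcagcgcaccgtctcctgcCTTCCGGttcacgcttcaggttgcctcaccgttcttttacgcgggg
In Cox6a1 the NRF1 letters occur on both strands and overlap, so that they read as a single run of capitals, and the ETS letters occur once. In Sdhb the capitals mark 1 NRF1 match, and in Sdhd 1 ETS match. Sdhb also has 1 ETS match within the 50 bases after its start, which are not shown. A match describes the letters only and is no measured site.

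Members with and without these letters had small fold changes alike. Of the 15 tested members with either motif 10 were higher in βIgf1rKD islets, with a median log2 fold change of 0.04 and a range of -0.15 to 0.09. Of the 36 with a promoter and neither motif 16 were higher, with a median of -0.01. All 7 with the NRF1 letters, Cox6a1, Ndufa6, Ndufa8, Ndufa11, Sdhb, Uqcr11 and Uqcrc1, were on the higher side by sign, between 0.02 and 0.09, and 0 of them passed the test. All but Ndufa6 were among the GC-richer members, of which 21 of 32 were higher. With the acinar score as a covariate Sdhb and Uqcr11 were on the lower side and Cox6a1 on the higher. Sdhb and Uqcr11 also changed side with 1 mouse left out. Ndufa6, Ndufa8, Ndufa11 and Uqcrc1 were not among the members whose recomputed values were examined. The 7 with the NRF1 letters were also higher in M152, by a median deviation of 0.16, and in M146, by 0.15, and lower in M151, at -0.19. Nrf1 itself was at 15.3 ± 0.729 CPM in βIgf1r mice and 15.3 ± 0.406 CPM in βIgf1rKD mice (mean ± SD, n = 4 each), and Gabpa at 27.0 ± 2.19 and 26.9 ± 3.26 CPM.

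Genes that work with the members were taken from lists outside the rule. Of 91 such genes tested, 2 had an unadjusted edgeR p under 0.05, where 4.12% of all genes did, and 0 had an adjusted p under 0.05. Of 48 tested assembly factors, which build the complexes but are no part of them, 29 were higher and 19 lower, with a median log2 fold change of 0.03. Cox19, a small copper-related factor of complex IV assembly, was at 7.80, 6.84, 7.87 and 8.01 CPM in βIgf1r and 8.98, 10.7, 10.4 and 9.89 CPM in βIgf1rKD mice. It was the only tested assembly factor whose groups did not overlap, where those of 2.22% of all genes did not. Its log2 fold change was 0.39 (standard error 0.10, 95% interval 0.16 to 0.62, edgeR adjusted p = 0.987). Of 17 ATP synthase subunits 7 were higher and 10 lower, with a median of -0.02 and 0 with an unadjusted p under 0.05. Cytochrome c, Cycs, and cytochrome c1, Cyc1, had log2 fold changes of 0.00173 and 0.05.

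Among 11 tested regulators of mitochondrial biogenesis 6 were higher and 5 lower. Pprc1, a coactivator related to PGC-1α, was at 23.6, 18.9, 27.9 and 20.1 CPM in βIgf1r and 23.6, 33.9, 29.0 and 28.7 CPM in βIgf1rKD mice. The groups overlapped through M152 and M145, and the log2 fold change was 0.35 (standard error 0.15, 95% interval 0.02 to 0.67, edgeR adjusted p = 0.987). Ppargc1a, which encodes PGC-1α, was at 8.997, 3.78, 4.88 and 7.20 CPM in βIgf1r and 4.91, 1.39, 6.75 and 3.16 CPM in βIgf1rKD mice. It spread widely in both groups, its log2 fold change being -0.63 (standard error 0.44, 95% interval -1.61 to 0.35). Tfam, which maintains and transcribes the mitochondrial genome, was at 23.5 ± 0.878 CPM in βIgf1r mice and 24.7 ± 1.88 CPM in βIgf1rKD mice (mean ± SD, n = 4 each).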

How the data were processed

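RNA-seq of islets from 4 βIgf1r and 4 βIgf1rKD mice was analysed, with groups from the sample labels. Mouse numbers are not shared between groups, so no mice were paired. The authors deposited estimated counts per Ensembl gene from stranded mRNA libraries. The submitters' processing notes name fastp, kallisto and GRCm38, without versions, and the annotation release is not given in the sources used here. Of 53012 identifiers 51906 matched a symbol, and coordinates, exons and transcript GC content are those of GENCODE M21 on GRCm38.

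Estimated counts were rounded. The filter of edgeR 4.0.16 (10 counts at the scale of the libraries in 4 mice, 15 in total) kept 15474 genes. TMM factors were used, log2 CPM had a prior count of 2, and the test was edgeR's quasi-likelihood F test, adjusted over all genes after Benjamini and Hochberg, in R 4.3.3. A p under 0.05 was used, as in the statistics of the study. The plan spoke of counts, and the deposited estimated counts were tested in the same way after rounding. Levels per kilobase are CPM over the union of exons. Isoform ratios had 0.5 added to each count. Alternatives were RLE and upper-quartile factors, limma-voom (limma 3.58.1), DESeq2 1.42.0, no filter, at least 10 counts in every mouse, Xist or an acinar score as a covariate, and each mouse left out. Added after the data were seen were both covariates together, pseudogene counts added to their member, and M152 and M146 both left out. The scripts were tested on simulated counts. Libraries of a group differed pairwise by a chi-square of at least 78.4 per degree of freedom over genes, so none was counted as a repeat.

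Members and lists were chosen with earlier results of these data known. Members named by rule were those at an unadjusted p under 0.05 or without overlap, of which there were 0, those of complex II, the 2 highest and 2 lowest fold changes and the 2 highest levels per kilobase in each of complexes I, III and IV, and the isoform pairs. Of the other lists each gene at an unadjusted p under 0.05 was named. Other genes were named after their values were seen. The values of 1 member are not reported here, while counts and medians over the members include it.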

Additional observations from a re-analysis of the deposited data

Results flagged for a closer look

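In each group of 4 mice, a mouse was marked when its gap to the nearest other mouse as a share of the group's whole range was above Dixon's 95% critical value for 4 values. This held for 3 of the 64 sets of 4 mice examined, where chance gives about 1 in 20, or 3.2. The sets did not cover every tested member in both groups. In βIgf1rKD mice Cox6a2 was lowest in M149, with 4.11 on the log2 CPM scale where the rest had 4.91 to 5.05, a gap of 0.847 of the range. In βIgf1rKD mice Cox7b was lowest in M146, with 4.98 where the rest had 5.61 to 5.71, a gap of 0.859 of the range, and the βIgf1r mouse M152 had nearly the same level. In βIgf1r mice Sdhc was lowest in M151, with 5.92 where the rest had 6.16 to 6.20, a gap of 0.874 of the range, as were most other members in that mouse.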

How the results depend on the processing

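No paired analysis was possible because no mouse number occurs in both groups. In 19 alternatives the number of members at an adjusted p under 0.05 was 0 each time. The median log2 fold change of the members lay between -0.05 and 0.05 in all 19, on both sides of 0. RLE and upper-quartile factors, DESeq2, limma-voom, both other filters and the added pseudogene counts left 0 members at an unadjusted p under 0.05. Xist as a covariate gave 3 such members and 5 genes of the outside lists in place of 2, where 7.39% of all genes had such a p. The acinar covariate gave 1 outside gene, where 2.42% of all genes had such a p, and 19 members higher in βIgf1rKD islets in place of 30. Leaving out both M152 and M146 gave 1 member and 5 outside genes, where 7.79% of all genes had such a p. It also gave 2 members without overlap, where 13.5% of all genes did not overlap. With 1 mouse left out, 0 to 2 members and 1 to 8 outside genes had an unadjusted p under 0.05, where 2.45% to 7.09% of all genes did. The 8 outside genes were those without M152, where 7.09% of all genes did. With 1 mouse left out 0 to 3 members did not overlap, where 3.47% to 7.81% of all genes did not (5.46% without M151, which gave the 3 members). Between 19 and 43 members were higher, the extremes being those without M151 and without M153, where 54.2% and 51.4% of all genes were higher. The median log2 fold change was then -0.05 to 0.02.

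Of 512 recomputed fold changes of 27 named members 470 kept their direction and side of an unadjusted p of 0.05, 5 passed it and 37 changed sign. Signs changed for Cox6a2 (-0.17), Cox7b (0.024), Cox8a (0.00181), Ndufa1 (0.091), Ndufb11 (0.020) and Sdhc (0.040) with Xist, for Sdhb (-0.026), Uqcr11 (-0.00657) and Uqcrh (-0.036) with the acinar score, for Cox8a (0.065), Ndufa1 (0.045), Ndufb11 (0.00345) and Sdhc (0.10) with both, for Cox7b (0.00335) with limma-voom, and for Cox6a2 (-0.028) and Ndufa1 (0.042) without M152 and M146. With 1 mouse left out the log2 fold change spanned 0 for Cox6a2 (-0.019 to 0.29), Cox7a1 (-0.40 to 0.017), Cox7b (-0.15 to 0.14), Ndufa1 (-0.098 to 0.042), Ndufb11 (-0.073 to 0.058), Sdhb (-0.040 to 0.11), Uqcr11 (-0.022 to 0.11), Uqcrb (-0.15 to 0.022) and Uqcrh (-0.026 to 0.096), as did the ratios Cox6a2/Cox6a1 (-0.12 to 0.29) and Cox7a1/Cox7a2 (-0.36 to 0.14). The cause was not tested. Over all genes 637 had an unadjusted p under 0.05, against 1098 with no filter, 1143 with Xist, 375 with the acinar score, 383 without M148, 1114 without M152, 402 without M153, 960 without M146 and 1212 without both M152 and M146, and DESeq2 gave 8 and limma-voom 1 gene at an adjusted p under 0.05. Median levels per kilobase in complexes I to IV were 21.6, 39.5, 48.0 and 37.3 CPM by exon union and 48.3, 61.8, 82.0 and 81.5 CPM by coding transcripts. Depth limits Cox7a1 and Cox4i2, with 7 to 14 and 10 to 50 counts per mouse.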

Other observations

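A row left out by the rule, Ndufb1-ps, is annotated as a non-coding RNA from a bidirectional promoter and had 550 to 1148 counts per mouse, at 27.4 ± 4.11 CPM in βIgf1r mice and 25.8 ± 4.13 CPM in βIgf1rKD mice (mean ± SD, n = 4 each). Its level lay in the range of the small complex I subunits, although it carries the name of a pseudogene. The 6 other pseudogene rows of members apart from Ndufb4c, such as Uqcrh-ps1 and Ndufs6b, had no count in any mouse.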
